A study of Mus musculus with 8 samples.

Results

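The genes described here make, bind and respond to prostaglandins and leukotrienes, the lipid mediators that macrophages form from arachidonic acid. The set holds 10 genes: Ptgs1, Ptgs2, Ptgis, Ptges, Pla2g4a, Alox5, Alox5ap, Alox15, Ltc4s and Ptger4. Every probe set that the platform annotation gives to 1 of these genes alone was taken, which found 13 of 45037 probe sets. They cover 9 of the 10 genes, since no probe set is named for Ptgs1 in the annotation used here and its level was not analysed. Ptges has 3 probe sets, Ptgs2 and Ptger4 have 2 each and the other 6 genes have 1 each. No filter on low values was applied, so all 13 entered every test.

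The study asked how deletion of the mineralocorticoid receptor (MR, gene Nr3c2) in macrophages alters their answer to glucocorticoid, and RNA was measured on Affymetrix mouse arrays. The MR knockout cells came from mice labelled MR fl / fl, LysM cre, and the floxed control cells from mice labelled MR fl / fl without Cre, so every group carries the floxed alleles. LysM Cre acts in myeloid cells, neutrophils as well as macrophages. All mice were male C57BL6/J. They received 3% thioglycolate into the peritoneum 4 days before collection, and the adherent peritoneal macrophages were cultured for 24 h with 1 µM corticosterone, the main glucocorticoid of the mouse, or without it. There were 4 groups of 2 arrays: MR knockout with corticosterone, MR knockout untreated, floxed control with corticosterone and floxed control untreated. Each sample was a pool of experiments done in triplicate, so the p-values measure the spread between pooled samples, part of which may be technical.

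Cytosolic phospholipase A2 (Pla2g4a) frees arachidonic acid from membranes. Cyclooxygenases (Ptgs1, Ptgs2) turn it into prostaglandin H2, from which Ptges makes prostaglandin E2 and Ptgis makes prostacyclin, and Ptger4 encodes a receptor for prostaglandin E2 that raises cyclic AMP. On the other branch 5-lipoxygenase (Alox5) with its membrane partner FLAP (Alox5ap) makes leukotriene A4, which Ltc4s joins to glutathione, while Alox15 encodes a separate lipoxygenase. Glucocorticoids are known to restrain this pathway in macrophages, in part by lowering Ptgs2 RNA and phospholipase activity.

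The promoters of 4 genes whose RNA fell with hormone in at least 1 genotype are shown for comparison of their sequence, as 250 bases before to 50 bases after the RefSeq start of transcription in build GRCm38.p6. Of the 10 genes, 7 have such an entry, and Ptgis, Alox5ap and Alox15 do not. Capitals mark letters that match a searched motif on either strand. The Ptgs2 promoter lies at chr1:150099781-150100080 on the plus strand, Pla2g4a at chr1:149961241-149961540, Alox5 at chr6:116461129-116461428 and Ptger4 at chr15:5244138-5244437, all 3 on the minus strand.
Ptgs2: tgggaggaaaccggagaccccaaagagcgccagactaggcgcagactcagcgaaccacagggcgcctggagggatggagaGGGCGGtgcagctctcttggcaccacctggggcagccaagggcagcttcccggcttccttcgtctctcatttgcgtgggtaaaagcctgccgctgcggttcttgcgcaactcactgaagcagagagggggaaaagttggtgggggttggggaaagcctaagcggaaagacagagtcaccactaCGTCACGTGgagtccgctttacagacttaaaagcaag
Pla2g4a: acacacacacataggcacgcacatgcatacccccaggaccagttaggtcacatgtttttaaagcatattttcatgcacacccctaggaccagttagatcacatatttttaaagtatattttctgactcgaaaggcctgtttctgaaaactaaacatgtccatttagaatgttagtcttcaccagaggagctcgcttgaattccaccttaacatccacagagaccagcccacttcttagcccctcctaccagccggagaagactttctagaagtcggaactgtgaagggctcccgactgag
Alox5: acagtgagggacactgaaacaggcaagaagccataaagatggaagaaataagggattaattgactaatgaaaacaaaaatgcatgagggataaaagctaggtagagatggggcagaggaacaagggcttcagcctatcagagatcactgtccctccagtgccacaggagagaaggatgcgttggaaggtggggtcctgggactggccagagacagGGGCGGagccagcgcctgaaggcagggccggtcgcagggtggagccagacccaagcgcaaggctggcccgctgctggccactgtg
Ptger4: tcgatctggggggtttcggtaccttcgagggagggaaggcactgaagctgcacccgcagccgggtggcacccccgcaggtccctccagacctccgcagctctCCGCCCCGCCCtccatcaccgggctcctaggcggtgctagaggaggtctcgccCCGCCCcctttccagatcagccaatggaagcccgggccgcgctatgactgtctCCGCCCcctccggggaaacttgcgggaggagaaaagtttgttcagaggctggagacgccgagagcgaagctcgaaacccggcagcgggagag

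The searched motifs were the glucocorticoid response element, taken as AGAACA and its reverse complement with 3 bases between, AGAACA alone, the inverted repeat of negative elements, taken as CTCC and GGAGA with 0, 1 or 2 bases between, the AP-1 site TGANTCA, the cyclic AMP response core TGACG, the E-box CACGTG, the NF-kB site, taken as GGGA and TTTCC with 1 base between, the TATA box TATAAA and the Sp1 box GGGCGG. Among 32851 promoters of this length they occur in 0.00913%, 19%, 0.317%, 0.737%, 0.676%, 7.81%, 20.8%, 7.15%, 0.411%, 13.6% and 35.7%, in that order. In Ptgs2 the cyclic AMP core, on the other strand, begins at position 14 counted from the start and overlaps an E-box that begins at position 17, and an Sp1 box begins at position -170. Alox5 holds 1 Sp1 box, at position -35. Ptger4 holds 4 Sp1 boxes on the other strand, and the first 2 of them share a base. The printed Pla2g4a promoter holds none of these motifs, while the window at that gene's second start, not printed, holds AGAACA and a TATA box. No glucocorticoid response element and no inverted repeat was found in any of the 7 genes' windows, which says only that those letters are not there.

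The deposited values are log2 expression levels made with RMA, 1 per probe set and array. They are relative within an array and are compared below only for the same probe set between arrays. The second floxed control untreated array stood apart: it correlated with the other arrays at a median of 0.919, and each of those arrays at 0.994 to 0.995. Its 3′ minus 5′ difference was 2.18 log2 units for the Actb controls (0.41 to 0.62 on the others) and 1.84 for the Gapdh controls (0.65 to 0.79). The macrophage marker list averaged 12.08 to 12.36 on 7 arrays and 11.56 on this one, and the fibroblast and mesothelial list 6.79 to 7.20 and 8.79. The results below therefore come from a fit of the other 7 arrays, in which floxed control untreated has 1 array and takes its spread from the other groups, and values from all 8 arrays are given where they turn or move a result. Nr3c2 itself read 5.11 and 5.47 in MR knockout cells with corticosterone and 5.54 and 5.82 in MR knockout cells untreated, against 6.39 and 6.13 in floxed control cells with corticosterone and 6.39 on the untreated array, with 8.46 on the array that stands apart. The difference between genotypes was -0.97 log2 units with hormone (SE 0.17, adjusted p = 0.0369) and -0.71 without (adjusted p = 0.194). The labels and files used here do not say whether its probes lie in the deleted exons.

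**Figure D1:**
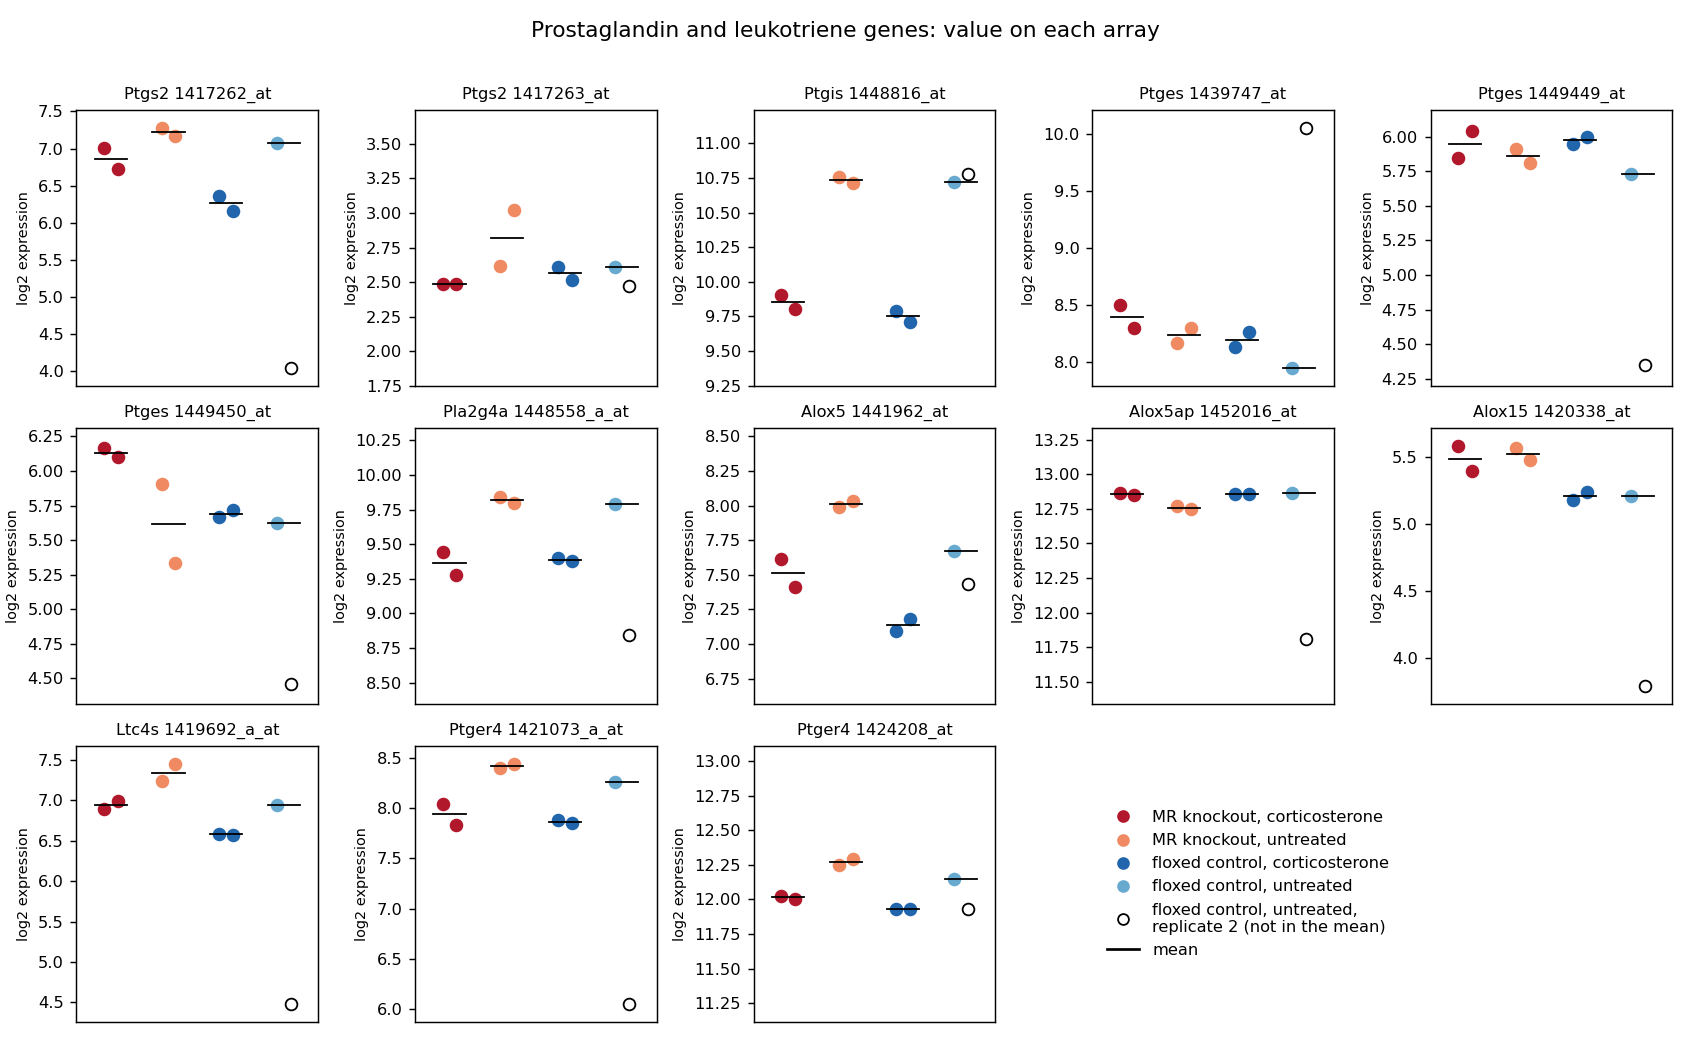
Log2 expression (vertical axis, scaled per panel) of the 13 probe sets on each array, by group, with black lines for group means. Ptgis lies between 9.71 and 9.90 on the 4 arrays with corticosterone and between 10.71 and 10.78 on the untreated arrays, and open circles mark the floxed control untreated array left out of the means.

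With corticosterone the RNA for prostacyclin synthase, cytosolic phospholipase A2, the prostaglandin E2 receptor Ptger4 and 5-lipoxygenase fell in cells of both genotypes. In MR knockout cells 5 of 13 probe sets fell and 1 rose, where 4.82% of all 45037 probe sets fell and 4.33% rose at an adjusted p under 0.05. In floxed control cells 5 fell and 0 rose, where 3.6% of all probe sets fell and 3.19% rose. The median difference of the 13 was -0.34 log2 units in MR knockout cells and -0.22 in floxed control cells, against -0.0060 and 0.00039 over all probe sets. With all 8 arrays 0 of the 13 passed in either genotype, where 0.0577% of all probe sets passed in MR knockout cells and 0.0622% in floxed control cells. A fit of the 4 MR knockout arrays alone called 6 of the 13, and 3159 of all 45037 probe sets. At an unadjusted p under 0.05, limma with 7 arrays gave 10 of 13 in MR knockout cells and 7 of 13 in floxed control cells, beside 20.4% and 18.1% of all probe sets.

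**Figure D2:**
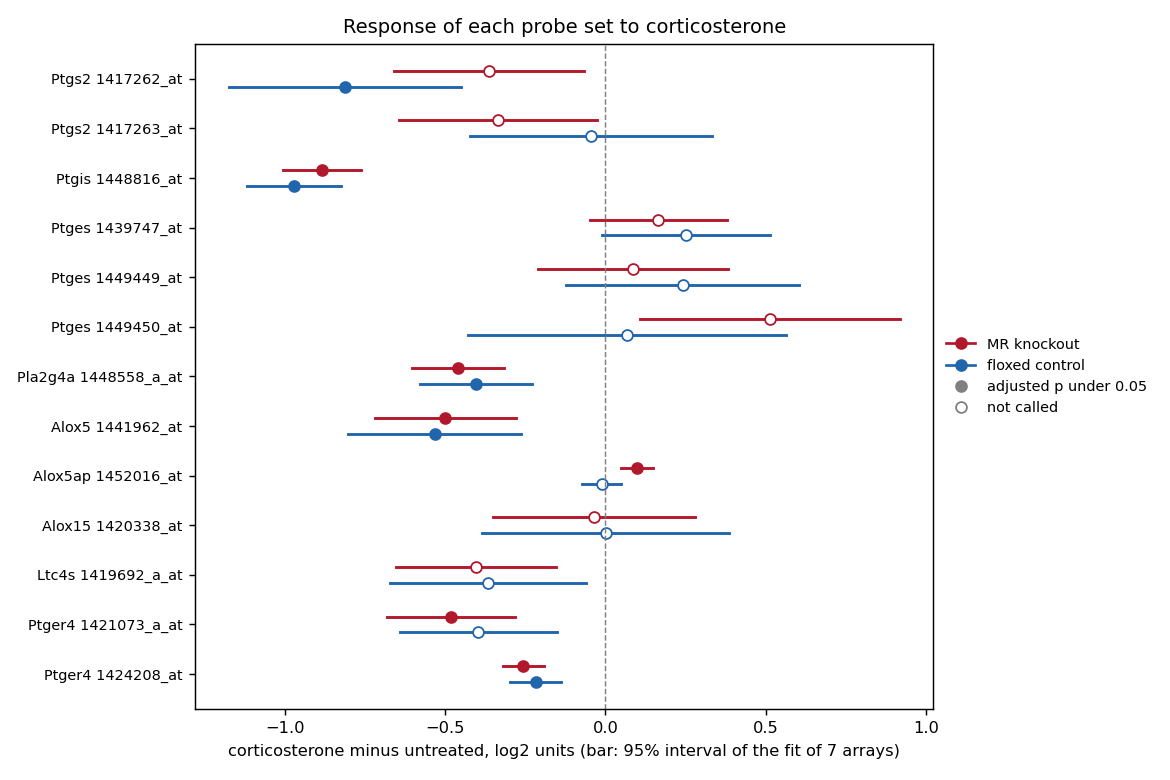
Difference between corticosterone and untreated cells in log2 units (horizontal axis) for each probe set, with the 95% interval of the 7-array fit as bars, MR knockout in red above floxed control in blue. Filled points passed an adjusted p of 0.05, and Ptgis lies farthest to the left in both genotypes, at -0.88 in MR knockout cells and -0.97 in floxed control cells.

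Pla2g4a (probe set 1448558_a_at) encodes the enzyme that supplies arachidonic acid. It read 9.44 and 9.28 in MR knockout cells with corticosterone and 9.84 and 9.80 in those without. Floxed control cells gave 9.40 and 9.38 with corticosterone and 9.79 on the untreated array, while the array that stands apart read 8.84. The treated arrays of both genotypes lay below all untreated arrays but that one. Pla2g4a fell by 0.46 log2 units in MR knockout cells (SE 0.064, adjusted p = 0.00131), which left it at 0.728 times the untreated level. The fall in floxed control cells was 0.40 (SE 0.078, adjusted p = 0.0121), but with all 8 arrays the difference was +0.072 (adjusted p = 0.9). Leaving out either floxed control corticosterone array ended the call in that genotype, with an adjusted p of 0.073 without replicate 1 and 0.0938 without replicate 2, and so did a fit with no variance trend (0.13).

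Ptgs2, the inducible cyclooxygenase, was measured by 2 probe sets. Probe set 1417262_at read 7.01 and 6.72 in MR knockout cells with corticosterone and 7.28 and 7.17 in those without. Floxed control cells gave 6.37 and 6.16 with corticosterone, 7.07 on the untreated array and 4.04 on the array that stands apart. The 2 floxed control arrays with hormone were the lowest of the 7, and among these 7 the treated arrays of each genotype lay below its untreated ones. Ptgs2 fell by 0.81 log2 units in floxed control cells (SE 0.16, adjusted p = 0.0144), to 0.570 times the untreated level. In MR knockout cells the difference was -0.36 (SE 0.13, adjusted p = 0.144), which did not pass. The floxed control result rests on few arrays: without corticosterone replicate 2 its adjusted p was 0.112, with no variance trend it was 0.0877, and with all 8 arrays the difference turned to +0.70 (adjusted p = 0.655). The second Ptgs2 probe set, 1417263_at, lay between 2.49 and 3.02 on the 7 arrays and passed in no comparison, with hormone differences of -0.34 in MR knockout cells and -0.046 in floxed control cells.

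Ptgis, which makes prostacyclin, had the lowest adjusted p of the 13 probe sets in both genotypes. Probe set 1448816_at averaged 9.85 ± 0.074 in MR knockout cells with corticosterone and 10.74 ± 0.031 in those without (SD, 2 arrays each). Floxed control cells gave 9.79 and 9.71 with corticosterone, 10.72 on the untreated array and 10.78 on the array that stands apart. Here that array lay beside its replicate, and every treated array lay below every untreated one. Ptgis fell by 0.88 log2 units in MR knockout cells (95% interval -1.003 to -0.76, adjusted p = 5.82e-06) and by 0.97 in floxed control cells (95% interval -1.12 to -0.82, adjusted p = 1.87e-05). These are 0.542 and 0.510 times the untreated level. With all 8 arrays the differences were -0.88 and -1.001, their SE was 0.11 in place of 0.054 and 0.066, and the adjusted p was 0.117 and 0.0833.

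Ptges, the inducible prostaglandin E2 synthase, was called in no comparison by any of its 3 probe sets. Probe set 1439747_at read 8.50 and 8.29 in MR knockout cells with corticosterone and 8.17 and 8.30 in those without, against 8.13 and 8.26 in floxed control cells with corticosterone and 7.94 on the untreated array. The treated and untreated MR knockout arrays overlapped. Its difference with hormone was +0.17 in MR knockout cells (95% interval -0.049 to 0.38) and +0.25 in floxed control cells (95% interval -0.011 to 0.51). For 1449449_at and 1449450_at the differences were +0.086 and +0.51 in MR knockout cells and +0.24 and +0.067 in floxed control cells. The largest of these, +0.51, had an adjusted p of 0.13, and its untreated MR knockout arrays were far apart at 5.90 and 5.34. The floxed control difference of 1439747_at turned with all 8 arrays to -0.80 (adjusted p = 0.487), and those of 1449449_at and 1449450_at were +0.93 and +0.65.

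Ptger4 fell with hormone by both of its probe sets in MR knockout cells. Probe set 1424208_at read 12.02 and 12.01 in MR knockout cells with corticosterone and 12.25 and 12.29 in those without, against 11.93 and 11.93 in floxed control cells with corticosterone and 12.15 untreated. All 4 treated arrays lay below the 3 untreated arrays. The fall was small, 0.26 log2 units in MR knockout cells (SE 0.029, adjusted p = 0.000337) and 0.22 in floxed control cells (SE 0.035, adjusted p = 0.0045), and with no variance trend neither passed (0.0957 and 0.23). The array that stands apart read 11.93, level with the treated arrays, and with all 8 arrays the floxed control difference was -0.11 (adjusted p = 0.481). Probe set 1421073_a_at read 8.05 and 7.83 in MR knockout cells with corticosterone and 8.40 and 8.44 in those without, and 7.88 and 7.85 in floxed control cells with corticosterone against 8.26 untreated. It fell by 0.48 in MR knockout cells (SE 0.089, adjusted p = 0.00747), a call lost without corticosterone replicate 2 (adjusted p = 0.0732) and with no variance trend (0.0571). In floxed control cells its difference of -0.40 had an adjusted p of 0.0644, and it turned to +0.71 with all 8 arrays (0.545).

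Alox5, the enzyme that opens the leukotriene branch, fell with hormone and read higher in MR knockout cells. Probe set 1441962_at read 7.61 and 7.41 in MR knockout cells with corticosterone and 7.99 and 8.03 in those without. Floxed control cells gave 7.09 and 7.18 with corticosterone, 7.67 on the untreated array and 7.43 on the array that stands apart. Treated arrays lay below untreated ones in each genotype, and MR knockout arrays lay above floxed control arrays of the same treatment. The fall was 0.50 log2 units in MR knockout cells (SE 0.098, adjusted p = 0.0104) and 0.53 in floxed control cells (SE 0.12, adjusted p = 0.0271). In MR knockout cells the call was lost without corticosterone replicate 2 (adjusted p = 0.1) and with no variance trend (0.0522). In floxed control cells it was lost without corticosterone replicate 1 (0.158), without replicate 2 (0.101), with a replicate block (0.0785), with no variance trend (0.0974) and with all 8 arrays, where the difference was -0.41 and the adjusted p 0.447.

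The other leukotriene members were Alox5ap, Ltc4s and Alox15. Alox5ap (1452016_at), the membrane partner of 5-lipoxygenase, read 12.86 and 12.85 in MR knockout cells with corticosterone and 12.77 and 12.75 in those without. Floxed control cells gave 12.86 and 12.85 with corticosterone and 12.87 untreated, and 11.81 on the array that stands apart. The untreated MR knockout arrays were the lowest of the 7. Alox5ap rose by 0.098 in MR knockout cells (SE 0.022, adjusted p = 0.023), a change to 1.07 times, and differed by -0.012 in floxed control cells (adjusted p = 0.901), or by +0.52 with all 8 arrays. The rise was not called without MR knockout corticosterone replicate 1 (adjusted p = 0.176) or 2 (0.149), nor without MR knockout untreated replicate 2 (0.0764), nor with no variance trend (0.444).

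Ltc4s (1419692_a_at), which makes leukotriene C4, read 6.90 and 6.99 in MR knockout cells with corticosterone and 7.24 and 7.45 in those without. The floxed control values were 6.59 and 6.57 with corticosterone, 6.94 untreated and 4.47 on the array that stands apart. The groups did not overlap with hormone or with genotype among the 7 arrays, yet no difference within 1 genotype or 1 treatment passed. With hormone the difference was -0.40 in MR knockout cells (SE 0.11, adjusted p = 0.0545, or 0.0475 with 1 probe set per gene) and -0.37 in floxed control cells (SE 0.14, adjusted p = 0.181), which turned to +0.87 with all 8 arrays (0.512). Alox15 (1420338_at) lay between 5.18 and 5.59 on the 7 arrays. Its hormone difference was -0.035 in MR knockout cells (95% interval -0.35 to 0.28) and 0.00074 in floxed control cells (95% interval -0.38 to 0.39), or +0.71 with all 8 arrays.

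Averaging the hormone difference over both genotypes, a comparison added after the values were seen, called 7 of 13 probe sets lower and 0 higher, where 7.13% of all probe sets were called lower. Ptgis fell by 0.93 log2 units (adjusted p = 4.79e-07), Ptgs2 (1417262_at) by 0.59 (0.00407) and Alox5 by 0.52 (0.00146). The falls of Pla2g4a and Ltc4s were 0.43 (0.000271) and 0.38 (0.0169). Ptger4 fell by 0.24 (7.23e-05) with 1424208_at and by 0.44 (0.00218) with 1421073_a_at. All 7 also passed with no variance trend and with a replicate block. Ltc4s was not called without either floxed control corticosterone array or without MR knockout corticosterone replicate 1, while the other 6 passed with any 1 of the 6 other arrays left out. With the array that stands apart in place of its replicate, some of these falls turned to rises. The share of all probe sets called for this average in that fit is not given, so no count of members is read from it. With all 8 arrays only Ptgis passed (-0.94, adjusted p = 0.0153), where 0.138% of all probe sets were called lower, and Ptgs2, Ltc4s and Ptger4 (1421073_a_at) turned to +0.17, +0.23 and +0.11.

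Between genotypes none of the 13 probe sets passed, where 0.795% of all probe sets passed with corticosterone and 0.977% without. At an unadjusted p under 0.05, limma gave 5 of 13 in each comparison, beside 8.03% of all probe sets with corticosterone and 12.3% without. Most members nonetheless read a little higher in MR knockout cells: 10 of 13 with corticosterone, with a median difference of 0.10 log2 units, and 11 of 13 untreated, with a median of 0.15. The medians over all probe sets were -0.0088 and -0.0044. The 2 comparisons share no arrays, but the labels do not say whether treated and untreated cultures of a genotype came from the same mice. The untreated comparison has 1 floxed control array, and probe sets of 1 gene are not independent of each other.

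Ptgs2 with hormone had the largest genotype difference. The values of 7.01 and 6.72 in MR knockout cells lay above 6.37 and 6.16 in floxed control cells. The difference was +0.60 log2 units (95% interval 0.31 to 0.90, adjusted p = 0.0996), or 1.52 times, and did not pass. Without hormone it was +0.15 (95% interval -0.21 to 0.51). For Alox5 the differences were +0.38 with hormone (adjusted p = 0.203) and +0.34 without (0.275), and for Ltc4s +0.36 (0.332) and +0.40 (0.264). Alox5ap differed by 0.0017 with hormone and by -0.11 without (adjusted p = 0.129). Ptgis differed by +0.10 with hormone (95% interval -0.017 to 0.22) and by +0.015 without (-0.13 to 0.16). Pla2g4a differed by -0.028 with hormone (95% interval -0.17 to 0.11) and by +0.027 without (-0.15 to 0.20). In the fit of all 8 arrays the differences with hormone stay as given and those of untreated cells change, to +1.67 for Ptgs2, +1.64 for Ltc4s, +0.46 for Alox5, +0.42 for Alox5ap, +0.50 for Pla2g4a, -0.015 for Ptgis and -0.77 for Ptges (1439747_at). None of these passed.

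**Figure D3:**
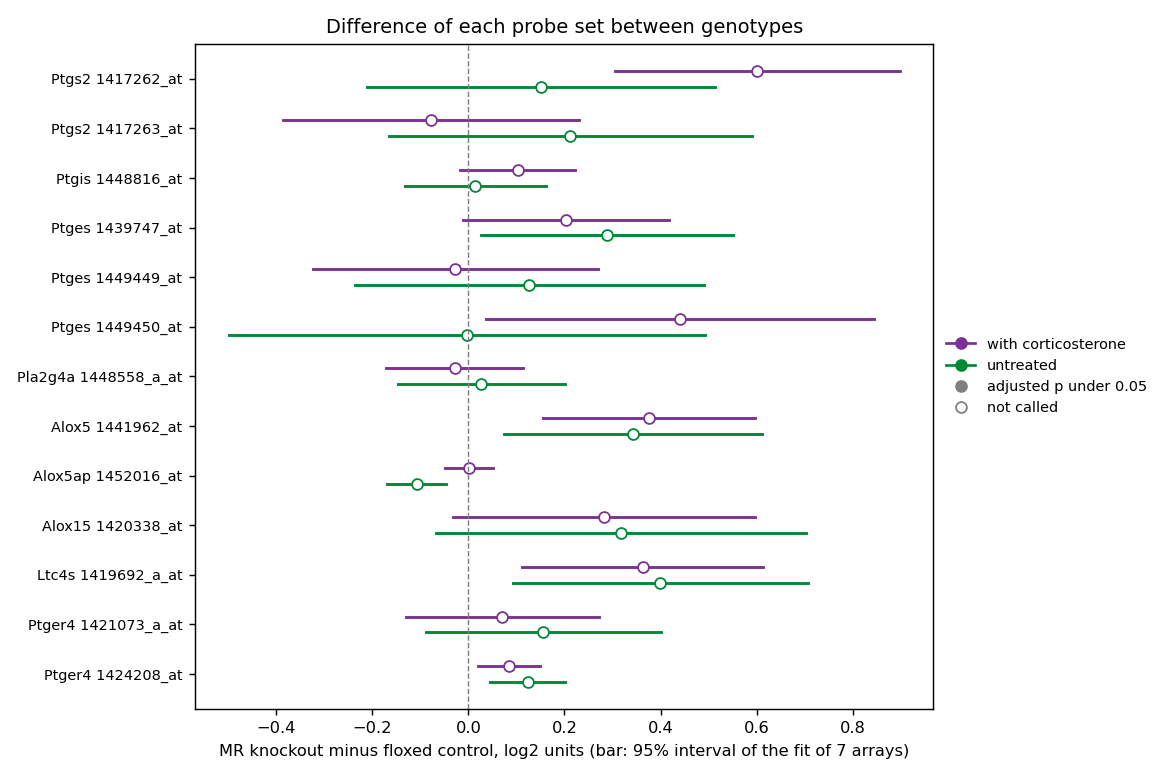
Difference between MR knockout and floxed control cells in log2 units (horizontal axis) for each probe set, with corticosterone in purple above untreated in green, and the 95% interval of the 7-array fit as bars. All points are open because none passed an adjusted p of 0.05, and Ptgs2 (1417262_at) with hormone lies farthest to the right, at 0.60.

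The hormone response itself was not shown to differ between genotypes for any member. None of the 13 passed the interaction test, which 0.00888% of all probe sets passed, and limma gave 1 of 13 at an unadjusted p under 0.05, beside 5.67% of all probe sets. That 1 was Alox5ap, whose response was 0.11 log2 units higher in MR knockout cells (adjusted p = 0.869). For Ptgs2 (1417262_at) the response was 0.45 less negative in MR knockout cells, with a 95% interval from -0.018 to 0.92 (adjusted p = 0.888). For Ptgis the interaction was 0.088 (95% interval -0.10 to 0.28), for Alox5 0.033 (-0.31 to 0.38) and for Pla2g4a -0.055 (-0.28 to 0.17). The interaction with all 8 arrays was -1.07 for Ptgs2 (adjusted p = 0.754), -0.42 for Alox5ap and -0.53 for Pla2g4a, 0.12 for Ptgis and -0.086 for Alox5. Responses that differ by less than these intervals could not be told apart with these arrays.

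Averaging the genotype difference over both treatments, a comparison added after the values were seen, called 2 of 13 probe sets, both higher in MR knockout cells, where 1.53% of all probe sets were called higher. Alox5 was higher by 0.36 log2 units (SE 0.077, adjusted p = 0.0462) and Ptger4 (1424208_at) by 0.10 (SE 0.023, adjusted p = 0.0488). Ltc4s at +0.38 (adjusted p = 0.0629) and Ptgs2 at +0.38 (0.116) did not pass. Both calls were lost with all 8 arrays (adjusted p = 0.78 for each), with no variance trend (0.165 and 0.444), with a replicate block (0.106 and 0.116) and, for each array but MR knockout untreated replicate 1 and the floxed control untreated array, when it was left out.

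Genes around these members in the same pathway changed in both directions with hormone. Of 57 further genes from lists of phospholipases, prostanoid synthases, transporters, receptors, leukotriene enzymes, lipoxygenases and glucocorticoid-induced regulators, 52 had a probe set. In MR knockout cells 6 rose, 5 fell and 41 did not pass, and in floxed control cells 8 rose, 5 fell and 39 did not pass. Over all probe sets 4.33% rose and 4.82% fell in MR knockout cells and 3.19% and 3.6% in floxed control cells. These bases are unlike, since the lists hold 1 probe set per gene, the one with the highest mean. With 1 probe set per gene the shares called over all genes were larger. The median differences of the 52 genes were -0.0084 and -0.021. With all 8 arrays none passed in MR knockout cells and only Dusp1 did in floxed control cells (adjusted p = 0.0401).

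Among 8 prostanoid receptors besides Ptger4, the prostacyclin receptor gene Ptgir fell and the prostaglandin E2 receptor gene Ptger2 rose in both genotypes. Ptgir read 9.08 and 8.86 in MR knockout cells with corticosterone and 10.04 and 10.09 in those without. Floxed control cells gave 8.97 and 8.87 with corticosterone, 10.09 untreated and 10.07 on the array that stands apart. It fell by 1.09 log2 units in MR knockout cells (adjusted p = 1.53e-05) and by 1.17 in floxed control cells (5.87e-05), so that RNA for prostacyclin synthase and for its receptor were both lower with hormone. Ptger2 read 9.59 and 9.75 in MR knockout cells with corticosterone and 9.09 and 8.85 in those without, against 9.51 and 9.54 in floxed control cells with corticosterone and 8.60 and 8.48 on the 2 untreated arrays. It rose by 0.70 in MR knockout cells (adjusted p = 0.000596) and by 0.93 in floxed control cells (0.000526). Ptger2 and Ptger4, both of which raise cyclic AMP on binding prostaglandin E2, thus moved in opposite directions.

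In the leukotriene branch 1 of 7 further enzyme and export genes rose and 2 fell in each genotype. Abcc1, the exporter of leukotriene C4, fell by 0.49 in MR knockout cells (adjusted p = 0.000173) and by 0.47 in floxed control cells (0.00112), and its second probe set also passed in both. The 8-array difference in floxed control cells was -0.21. Lta4h, which makes leukotriene B4, fell by 0.27 (adjusted p = 0.00358) and 0.43 (0.000949), while its 2 other probe sets did not pass, and its 8-array difference in floxed control cells was -0.030. Mgst3, a microsomal glutathione transferase, rose by 0.54 (adjusted p = 0.000102) and 0.60 (0.000278), with a second probe set that did not pass. Of 4 leukotriene receptor genes only Cysltr1, a receptor for cysteinyl leukotrienes, passed. It fell by 0.61 in MR knockout cells (adjusted p = 0.00352) and by 0.58 in floxed control cells (0.0197), where the call was lost without corticosterone replicate 1 (0.1) or 2 (0.114) and the difference was +0.62 with all 8 arrays. Its second probe set, at -0.32 (0.363) and -0.31 (0.532), did not pass.

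Among 14 phospholipases and arachidonate supply genes, Pla2g7, which encodes the enzyme that inactivates platelet-activating factor, rose by 0.54 in MR knockout cells (adjusted p = 0.000146) and by 0.60 in floxed control cells (0.000419). Lpcat3, which puts arachidonate back into phospholipids, fell by 0.28 in floxed control cells (adjusted p = 0.036, with an 8-array difference of +0.39) and differed by -0.13 in MR knockout cells (0.199). Leaving out 1 floxed control or MR knockout corticosterone array at a time raised that adjusted p to between 0.069 and 0.197. Of 5 further prostanoid synthases Ptges2 fell by 0.43 in MR knockout cells (adjusted p = 0.00502) and differed by -0.29 in floxed control cells (0.101). Among floxed control arrays Tbxas1 rose by 0.16 (0.0267), a call lost without either floxed control corticosterone array (0.127 and 0.116), and Ptgds rose by 1.16 (0.00472), which became -1.25 with all 8 arrays. The second Ptgds probe set differed by +0.13 (0.827) and did not pass. None of 5 other lipoxygenase genes passed, with Alox12 at -0.092 and -0.12 and Aloxe3 at +0.072 and -0.099 in MR knockout and floxed control cells.

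Of 4 regulators known to be induced by glucocorticoids and to limit eicosanoid output, 3 rose in each genotype. Tsc22d3, the gene for the leucine zipper protein GILZ, rose by 1.63 in MR knockout cells (adjusted p = 2.18e-08) and by 1.52 in floxed control cells (1.74e-07). Dusp1, a phosphatase that switches off MAP kinases, rose by 0.64 (4.8e-06) and 0.73 (1.28e-05). Zfp36, which destabilises Ptgs2 and other inflammatory RNAs, rose by 0.20 (0.0318) and 0.26 (0.0327). In MR knockout cells Zfp36 lost its call when any 1 of 5 arrays was left out (adjusted p = 0.0634 to 0.241), corticosterone replicate 2 being the exception, and in floxed control cells without either corticosterone array (0.184 and 0.111). Anxa1, which encodes annexin A1, was not called and read 13.40 and 13.37 in MR knockout cells with hormone and 13.46 and 13.44 without, against 13.47 and 13.44 in floxed control cells with hormone and 13.54 without.

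**Figure D4:**
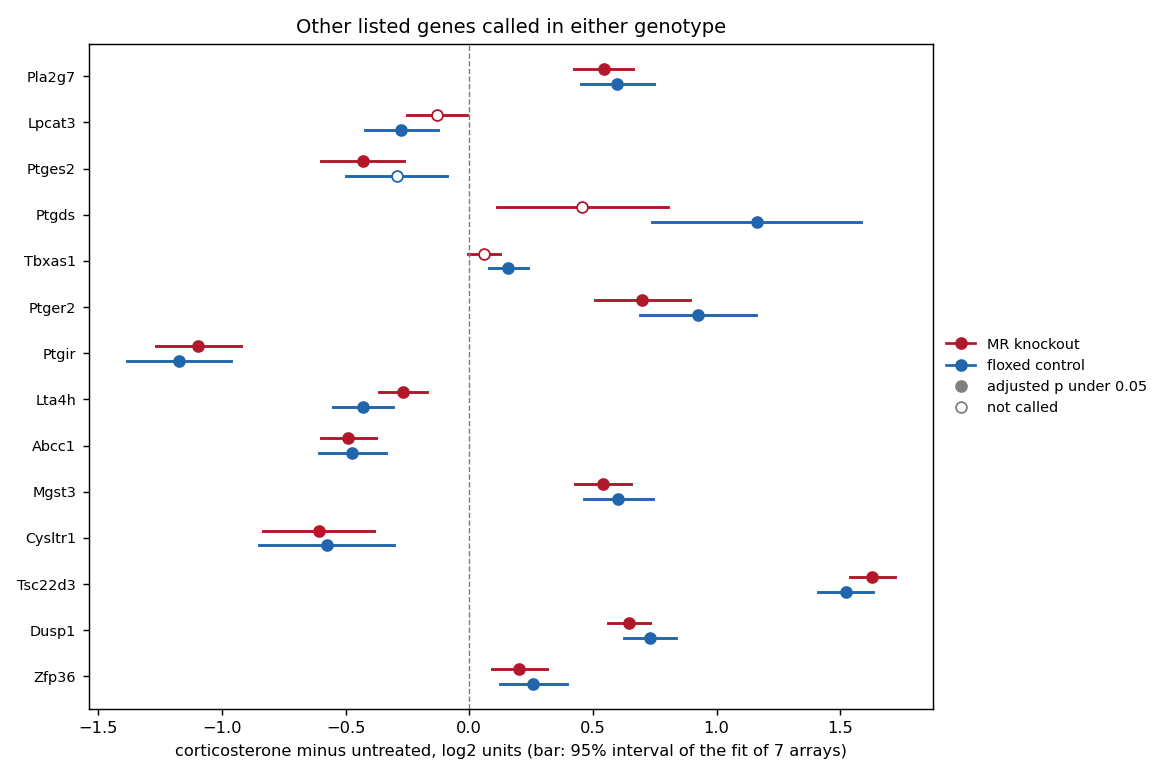
Difference between corticosterone and untreated cells in log2 units (horizontal axis) for the listed pathway and regulator genes called in at least 1 genotype, with the 95% interval of the 7-array fit, MR knockout in red above floxed control in blue. Ptgir lies farthest to the left at -1.09 and -1.17, and Tsc22d3 farthest to the right at 1.63 and 1.52.

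Between genotypes the wider lists held 2 genes that passed with hormone, both lower in MR knockout cells, and 3 without hormone. Mgll, which releases arachidonic acid from an endocannabinoid, read 8.33 and 8.34 in MR knockout cells with corticosterone and 8.20 and 8.25 in those without. The floxed control values were 9.14 and 9.15 with corticosterone and 8.97 and 8.88 on the 2 untreated arrays, above every MR knockout array. It differed by -0.81 log2 units with hormone (adjusted p = 0.000239) and by -0.74 without (0.00197). Cyp4f18, an inactivator of leukotriene B4, differed by -1.03 with hormone (0.00329), a call lost without floxed control corticosterone replicate 1 (0.0772) or 2 (0.0796), and its second probe set differed by -0.038 (0.977). Hpgd, which breaks down prostaglandins, was higher by 0.96 in untreated MR knockout cells (0.00786), but on the array that stands apart it read 8.03, within the MR knockout values of 7.97 and 8.06. Ptgds was also called higher there, by 1.20 (0.0197), and its difference was -1.21 with all 8 arrays, while its second probe set differed by +0.16 (0.824) with 7 arrays.

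The marker lists moved with the hormone to unlike degrees. The macrophage list averaged 12.35 and 12.36 in MR knockout cells with corticosterone and 12.14 and 12.09 in those without. Floxed control cells gave 12.36 and 12.36 with corticosterone and 12.08 on the untreated array. The genes of this list did not move together. In MR knockout cells Mertk moved most, averaging 11.85 with corticosterone and 10.14 without, and Adgre1, Fcgr1 and Cd14 rose less. Csf1r averaged 13.57 and 13.57 there, Lyz2 13.61 and 13.59, and Itgam was lower with hormone, at 8.50 against 9.02. On the 7 arrays the neutrophil list averaged 5.87 to 6.09 and the platelet and megakaryocyte list 6.05 to 6.21. The B cell list (4 of 5 genes measured) averaged 6.55 and 6.68 in MR knockout cells with corticosterone and 7.93 and 7.74 in those without, against 6.59 and 6.59 in floxed control cells with corticosterone and 7.53 untreated. On the array that stands apart that list averaged 6.85. Its genes Cd79a, Cd79b and Ms4a1 fell in both genotypes, with differences of -1.48, -1.37 and -1.96 in MR knockout cells and -1.04, -1.14 and -1.65 in floxed control cells. The T and NK cell list (5 of 7) averaged 4.25 and 4.26 in MR knockout cells with corticosterone and 5.60 and 5.55 in those without, against 4.47 and 4.39 in floxed control cells with corticosterone and 5.38 untreated. The mast cell and basophil list (11 of 11) averaged 5.40 to 5.71 in MR knockout cells and 5.24 to 5.55 in floxed control cells on the 7 arrays, with 3 genes called higher and 1 lower in each genotype, and 5 of the 11 below the array median on every array. The eosinophil list (6 of 7) averaged 4.51 and 4.58 in MR knockout cells with corticosterone and 4.82 and 4.88 in those without, against 4.59 and 4.54 in floxed control cells with corticosterone and 4.97 untreated, and 4 of the 6 lay below the array median throughout, Epx and Prg2 among them. The part of these cells in the falls of Alox5, Pla2g4a, Ptger4 and Ptgis was not tested, and in such cultures fewer cells of a type and less RNA per cell cannot be told apart.

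The genes whose levels followed a member most closely over the 7 arrays were named by Pearson correlation among 18193 genes, as a description only, since these arrays fall into the 4 treatment and genotype groups. For Ptgis they were Slc2a6, Exoc4 and Zmat3 (each r = 0.999), and 565 genes exceeded 0.95. For Pla2g4a they were Traf5 (0.995), Clec4b1 (0.991) and 5830432E09Rik (0.990), with 387 genes above 0.95. Alox5 was followed most closely by Chek1 (0.997), Psip1 (0.997) and E2f7 (0.996), and Ptger4 by Trip13 (0.997), Nrros (0.995) and Rap2a (0.994). For Ptgs2, which had 45 genes above 0.95, they were Oser1 (0.995), Dhrs13 (0.993) and Ect2 (0.992). Alox5ap had 12 such genes, led by Rnf138rt1 (0.979), Lrrc9 (0.972) and Man2b1 (0.970).

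The array that stands apart changes what can be said of several members. On it 5 of the 13 probe sets lay more than 1 log2 unit below the lowest of the other 7 arrays. Another 1 lay more than 1 unit above the highest. The share over all probe sets is not given, but of the 52 wider genes 5 lay as far below on this array and 3 as far above. Over all probe sets the median absolute difference between the floxed control untreated arrays was 0.46 log2 units, against 0.087 to 0.11 between replicates of the other groups. The counts are therefore not read as a trait of the members. Ptgs2 read 4.04 there, against 6.16 to 7.28 on the other arrays, and Ltc4s 4.47 against 6.57 to 7.45. Alox5, at 7.43, lay within the range of the others, and Ptgis, at 10.78, lay beside the other untreated arrays. Where this array replaces its replicate as the only untreated floxed control, Ptgs2 turns to +2.22 and Pla2g4a to +0.55 in the floxed control hormone comparison.

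**Figure D5:**
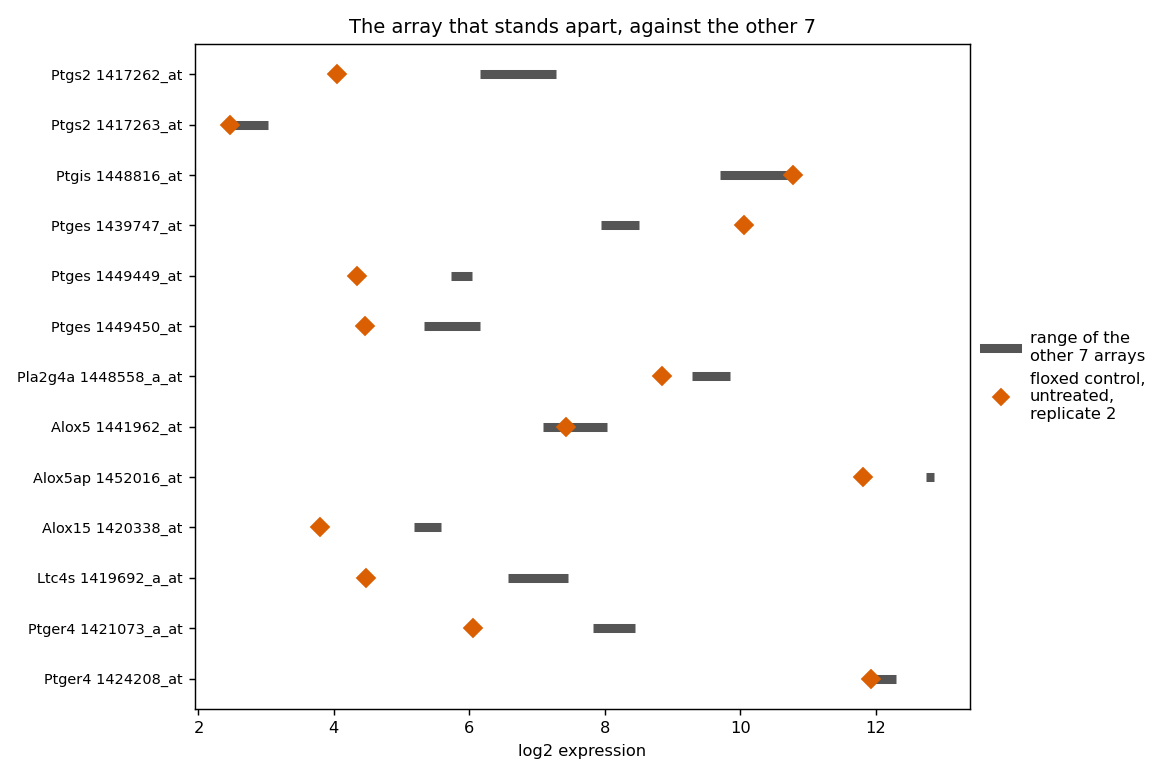
Log2 expression (horizontal axis) of the 13 probe sets, with grey bars for the range of 7 arrays and orange diamonds for the second floxed control untreated array. Ptgs2 (1417262_at), Ltc4s and Ptger4 (1421073_a_at) lie far below their bars, and Ptges (1439747_at) lies above its bar, at 10.05 against 7.94 to 8.50.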

How the data were processed

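RNA of 8 samples was hybridised to Affymetrix mouse arrays. The authors deposited 1 log2 expression value per probe set and array, made with RMA in R 2.7 per the submitters' processing notes. RMA corrects background, equalises the arrays' distributions and combines each set's probes, so a change in total RNA leaves no trace and dim values are compressed. No detection call comes with the values, and the number of arrays limits the precision. Of 45101 probe sets, 64 controls were left out. The platform annotation names 1 gene for 34945 of the rest and several for 932, and 9160 are unnamed here. Symbols of 34741 were matched to the GRCm38.p6 gene table and 204 were kept as given, which left 18193 genes. A gene with several probe sets is represented in gene lists by the one with the highest mean.

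In R 4.3.3, limma 3.58.1 was fitted to all 45037 probe sets by group means, and each probe set's spread was pooled over groups and moderated towards a trend with level. There were 5 contrasts: hormone in each genotype, genotype in each treatment, and the interaction. P-values were adjusted by Benjamini-Hochberg over all probe sets and called under 0.05 with no minimum fold. The main fit used 7 arrays, with 3 residual degrees of freedom, and all 8 arrays were an alternative, with 4. Between groups of 2 arrays the median SE was 0.123. The alternatives were other sets of arrays, array weights, a replicate block, the variance model, filters and rescaling. The fit was tested on simulated data. Named genes are all members, up to 3 called genes per wider list and comparison with the smallest p, up to 2 uncalled genes of a list with none called, and the 3 genes most like each called member. Members, lists and the choice of 7 arrays were made with earlier results of these data known, and the average hormone and average genotype comparisons and a fit of 5 arrays were added after the values were seen. Promoter sequences are RefSeq's, build GRCm38.p6.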

Additional observations from a re-analysis of the deposited data

Results flagged for a closer look

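The second floxed control untreated array was left out of the main comparisons. On it 4 genes of the pathway read more than 1 log2 unit higher than on any other array, and the share over all probe sets is not given. In the other direction, 5 of the 13 member probe sets and 5 of the 52 wider genes read more than 1 unit lower than on any other array. The values of these 4 genes on that array follow. For Ptges (1439747_at) it read 10.05, against 7.94 to 8.50 on the other 7 arrays, while the other 2 Ptges probe sets read lower on it than elsewhere, at 4.35 and 4.46. Ptgds read 9.66, against 4.84 to 6.70. Ptger3 read 7.09, against 3.61 to 4.15. Ptgfr read 6.38, against 2.93 to 3.46. The same array had the highest average of the fibroblast and mesothelial list, 8.79, and the largest 3′ minus 5′ difference of the Actb controls, 2.18, and the part of either in these values was not tested.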

How the results depend on the processing

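The count of called members was 6 in MR knockout cells with hormone and 5 in floxed control cells. With all 8 arrays both counts were 0. With no variance trend they were 2 and 1, and Ptgis was kept in both genotypes and Pla2g4a in MR knockout cells. Array weights on 8 arrays gave 0 in floxed control cells and 4 in MR knockout cells. Leaving out 1 array at a time gave 3 to 9 in MR knockout cells, lowest without corticosterone replicate 2, and 2 to 10 in floxed control cells, lowest without corticosterone replicate 2 and 3 without replicate 1. The 10 came with the array that stands apart in place of its replicate, which also gave 11 members between untreated genotypes and 9 in the interaction, each 0 otherwise. Directions turned in floxed control cells for Ptgs2, to 0.70 with 8 arrays, with or without weights, and to 2.22 with the replacement, and for Pla2g4a, to 0.072 and 0.55. Among members not called there, Ltc4s turned to 0.87, Ptger4 (1421073_a_at) to 0.71 and Ptges (1439747_at) to -0.80 with 8 arrays. Each of these fits includes the array that stands apart, which the main fit leaves out. Which untreated floxed control array lies nearer that group's level was not tested.

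Over all probe sets the counts in MR knockout and floxed control cells with hormone were 4118 and 3057 with 7 arrays, 26 and 28 with 8 arrays, 1688 and 864 with no trend, 2666 and 10 with weights, and 2502 and 1979 with 1 probe set per gene. Between genotypes 358 with hormone and 440 without became 100 and 64 with no trend, and 0 and 0 with 8 arrays. A replicate block kept 6 calls in MR knockout cells and 4 of 5 in floxed control cells, where Alox5 was lost (adjusted p = 0.0785). It also ended the average genotype calls of Alox5 (0.106) and Ptger4 (0.116). Deviations of same-numbered arrays correlated at -0.23 to 0.32, so the numbers are not taken to pair the samples. Normalizing again, centring, a robust variance, 1 probe set per gene, the arrays compared alone and dropping dim probe sets gave 5 to 7 calls in each hormone comparison. The fit of 5 arrays gave 5 in MR knockout and 6 in floxed control cells. With no detection call, signal over background was not tested.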
